A study of Mus musculus with 8 samples.

Results

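The nuclear genes for the oxidative phosphorylation machinery were followed in C2C12 cells, a mouse myoblast line, exposed to culture medium from CAPAN-1, a line of human pancreatic cancer cells. They were taken by gene symbol from a spotted muscle array: the NDUFA, NDUFB, NDUFC, NDUFS and NDUFV genes of complex I, SDHA to SDHD of complex II, the UQCR genes and CYC1 of complex III, the COX4 to COX8 genes of complex IV and the ATP5 genes of complex V. This gave 74 genes on 190 spots, of 2922 named genes on 6610 spots. Of the 74, 71 were subunits (31 of complex I, 3 of complex II, 8 of complex III, 13 of complex IV and 16 of complex V) and 3 were associated factors: the complex I assembly factors NDUFAF1 and NDUFAF3, and ATP5IF1, the inhibitor of ATP synthase. NDUFS3, SDHB, UQCRFS1 and COX6B2 had no named spot and were not analysed here.

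Oxidative phosphorylation is the chain of protein complexes in the inner mitochondrial membrane that passes electrons from NADH and succinate to oxygen and stores the energy as a proton gradient. Complex I takes electrons from NADH and complex II from succinate, complex III passes them to cytochrome c, complex IV reduces oxygen, and complex V, the ATP synthase, lets protons flow back to make ATP. Most subunits are encoded in the nucleus, a core set in mitochondrial DNA, and muscle uses tissue-specific isoforms of several complex IV subunits.

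Myoblasts grown in DMEM with 10% fetal bovine serum received control medium (MBN) for 0, 14 or 24 h or the conditioned medium (MBC) for 14 or 24 h. Conditioned cells at 14 h were set against control cells at 14 h (MBC14 over MBN14) and at 0 h (MBC14 over MBN0), and conditioned cells at 24 h against control cells at 24 h (MBC24 over MBN24) and at 0 h (MBC24 over MBN0). Each of these 4 comparisons was hybridised on 2 arrays, array A, where the conditioned RNA carried Cy5, and array B, where the same RNAs carried the exchanged dyes, 8 arrays in all. The model is 1 cell line in culture, and nothing in the labels says that a comparison was repeated with further cultures.

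The values are the authors' signed scores per spot, of unstated scale, so differences are given in score units and not as folds. Each array was centred on its median, spots of a gene were averaged, and array B was turned in sign, so that a positive value reads as higher in conditioned medium. This treats the scores as Cy5 over Cy3. The other way to read them, called the conditioned-over-control reading, takes array B as already turned; the labels do not settle the choice, and if the scores were control over conditioned every sign below would turn. Per array, the SD over all spots was 1.34 to 1.58 and the median -0.06 to 0.10. The 95 pairs of adjacent spots of these genes correlated at 0.27 to 0.76 and differed with an SD of 0.78 to 1.21. Across the 71 subunits the turned arrays A and B correlated at 0.22 in MBC14 over MBN14, 0.32 in MBC24 over MBN24, 0.02 in MBC14 over MBN0 and 0.29 in MBC24 over MBN0, which describes subunits that share the same slides. In MBC14 over MBN0 the labelling text of array B contradicts the dye field, and the field was used.

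The spots carry human gene names, and the RNA came from mouse cells. All 74 genes were matched to 1 mouse gene each, 58 by symbol, 14 by synonym and 2 by an earlier symbol. Of these, 60 have a promoter in the RefSeq table of build GRCm38.p6, which gave 65 sequences of 300 bases, from 250 before to 50 after a transcription start. Motifs of regulators known for mitochondrial genes were looked up on both strands. The longer NRF1 motif, with a free base in its middle, was in 18 of the 65 promoters (27.7%, against 4.6% of all 32851 promoters kept from the table). Its shorter form GCATGCGC, which overlaps the longer one and was added after that share was known, was in 8 (12.3%, against 2.71%). The GABPA motif CCGGAAG was in 15 (23.1%, against 8.86%). The YY1 motif AAGATGGC was in 9 (13.8%, against 2.75%) and the ESRRA motif AAGGTCA, the site of an orphan nuclear receptor, in 8 (12.3%, against 4.72%). A match is a description of the sequence. Single promoters were looked at for ATP5MK and ATP5PF, the genes called by the test below. The same was done for ATP5F1B, COX7A2 and NDUFS4, which lay below 0 on all 8 arrays. Only the promoters that held a motif are shown, from 3 genes. They are Atp5md, the mouse gene of ATP5MK, at chr19:47090598-47090897 on the minus strand, Atp5j, that of ATP5PF, at chr16:84834927-84835226 on the minus strand, and Ndufs4 at chr13:114388045-114388344 on the minus strand, all in GRCm38.p6. Capitals mark the GABPA motif in the first, the YY1 and GABPA motifs in the next and the YY1 motif in the last.
Atp5md promoter: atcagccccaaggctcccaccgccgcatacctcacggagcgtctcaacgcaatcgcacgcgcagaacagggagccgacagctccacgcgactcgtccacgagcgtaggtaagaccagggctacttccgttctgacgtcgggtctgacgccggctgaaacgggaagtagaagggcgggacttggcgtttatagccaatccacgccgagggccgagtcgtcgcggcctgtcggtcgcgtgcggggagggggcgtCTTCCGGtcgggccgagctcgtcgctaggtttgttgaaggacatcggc
Atp5j promoter: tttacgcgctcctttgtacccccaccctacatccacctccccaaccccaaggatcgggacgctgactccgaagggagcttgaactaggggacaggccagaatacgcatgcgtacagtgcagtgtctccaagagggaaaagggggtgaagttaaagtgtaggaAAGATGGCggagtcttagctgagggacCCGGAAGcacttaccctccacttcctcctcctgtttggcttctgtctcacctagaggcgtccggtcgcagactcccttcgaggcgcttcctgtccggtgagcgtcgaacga
Ndufs4 promoter: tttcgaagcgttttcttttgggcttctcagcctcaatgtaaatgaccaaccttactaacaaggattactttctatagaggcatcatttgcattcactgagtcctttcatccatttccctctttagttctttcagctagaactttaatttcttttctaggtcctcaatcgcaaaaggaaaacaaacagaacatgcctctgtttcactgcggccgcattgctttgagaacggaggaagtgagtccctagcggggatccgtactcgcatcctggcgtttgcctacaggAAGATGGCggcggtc
A second listed start of Atp5j, and the promoters of Atp5b (ATP5F1B) and Cox7a2, held none of these motifs in this window and are not shown.

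Conditioned and control cells at matched hours were compared first, since these 2 comparisons share no RNA. Only 2 of the 74 genes passed, and both rose: ATP5PF, a subunit of the peripheral stalk that holds the ATP synthase head still, and ATP5MK, a small membrane subunit of the same enzyme. That is 2.7% of the genes, against 5.2% of all 2922 genes (152, of which 90 were higher, 3.08%, and 62 lower, 2.12%), so the group was not called more often than the array as a whole. The test was limma on 2 values per gene, 1 array mean for each matched hour. It asked in a two-sided way whether their mean differs from 0, at an adjusted p under 0.05 (Benjamini-Hochberg over all 2922 genes). Such p-values rest only on the spread between these samples, which may be technical. The 2 values of a gene come from different hours, which serve here as the replicates. In limma the spread of each gene is drawn towards that of all genes. Each SE given below is therefore not the gene's own. The arrays compare whole cultures, so fewer transcripts per cell and a smaller share of cells with them cannot be told apart. At an unadjusted p under 0.05 there were 15 of 74 genes (20.3%), against 22.8% of all genes. When the other reading was used, limma called 0 of the 74 and 0 of all 2922 genes, with 4 of the 74 (5.41%) and 3.11% of all genes at an unadjusted p under 0.05.

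ATP5PF scored 0.93 on array A and 1.75 on array B at 14 h, and 3.16 and 2.32 at 24 h. All 4 matched-hour arrays were above 0, with the higher pair at 24 h. The mean was 2.04 ± 0.45 (SE, n = 2 comparisons), with a limma adjusted p of 0.0342. ATP5MK scored 0.22 and 2.33 at 14 h and 2.35 and 1.78 at 24 h, so that array A at 14 h was close to 0 and the other 3 arrays were near 2. Its mean was 1.67 ± 0.40 (SE, n = 2 comparisons), with a limma adjusted p of 0.0475. Against the 0 h control, ATP5MK was again above 0 on all arrays, with 0.44 and 1.40 for MBC14 and 0.14 and 1.69 for MBC24. ATP5PF was not: its arrays disagreed, with 1.82 and -1.79 for MBC14 and 1.0 and -0.15 for MBC24.

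Both calls changed with the reading of the dyes and with a local centring. With no centring both stayed called, with means of 1.99 and 1.62 and limma adjusted p of 0.0354 and 0.0483. Under the other reading the matched-hour mean of ATP5PF was 0.01 and that of ATP5MK -0.38, with limma adjusted p of 0.998 and 0.995. When each spot was set against the running median of 11 neighbouring spots in table order, the means were 0.39 and 0.29, with limma adjusted p of 0.634 and 0.727; with 51 neighbours they were 1.55 and 0.73, with 0.0402 and 0.300. Without array A the means were 2.03 and 2.05, with a limma adjusted p of 0.319 for both. Without array B they were 2.04 and 1.29, with 0.0584 and 0.364. Whether neighbours in the table are neighbours on the slide is not stated, and the part of position in these results was not tested.

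**Figure D1:**
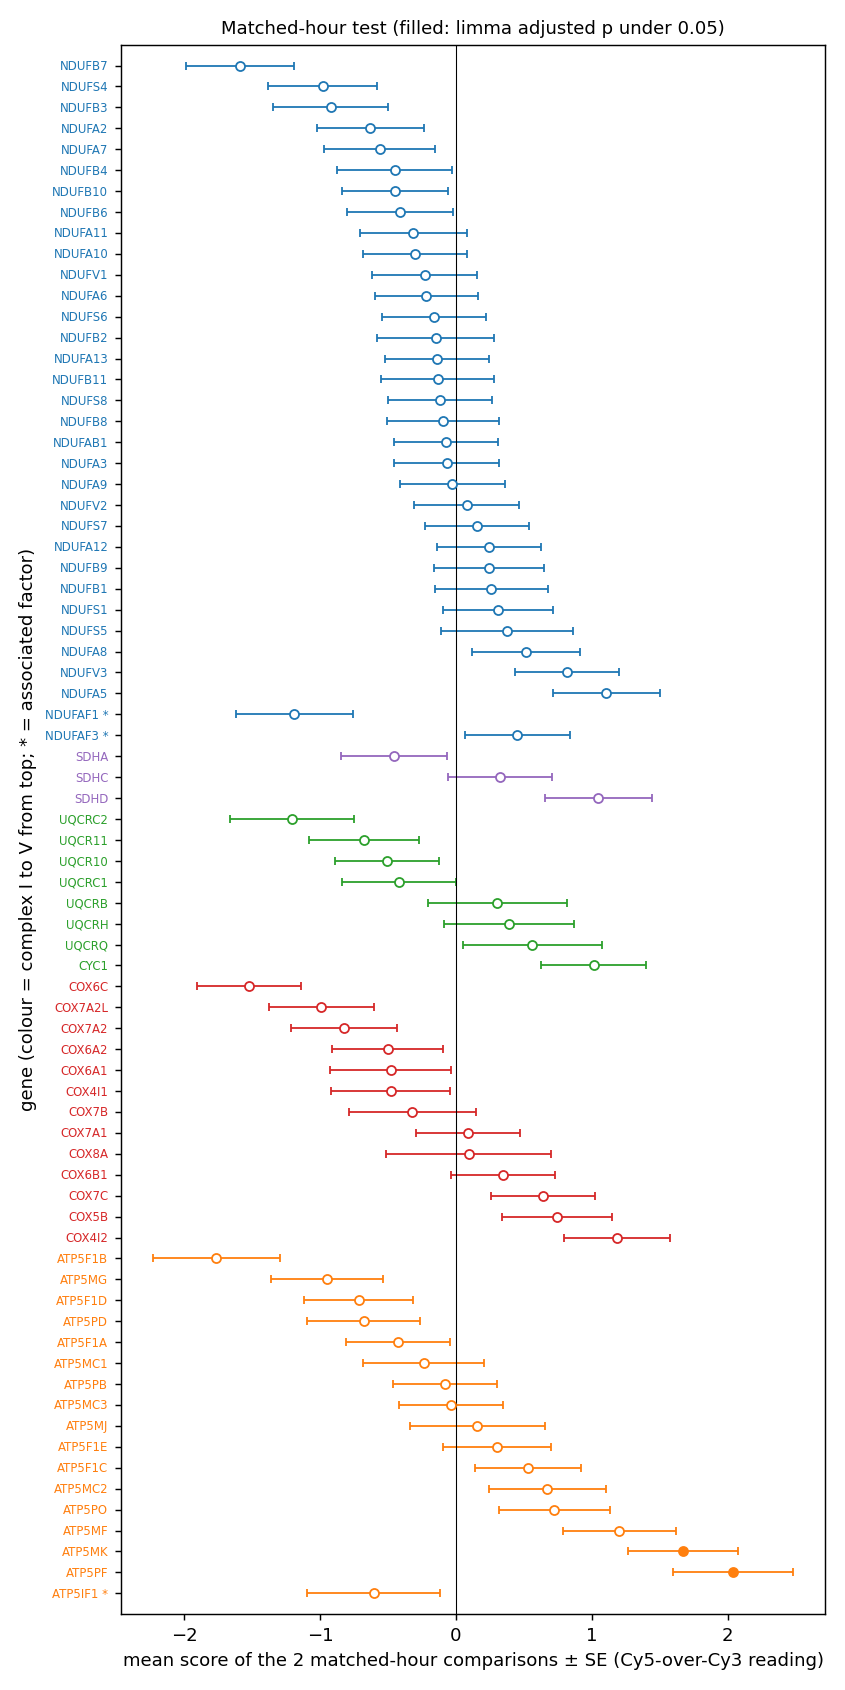
Mean score of the 2 matched-hour comparisons for the 74 genes in the Cy5-over-Cy3 reading, with bars of 1 SE from limma (n = 2 comparisons); genes run from complex I at the top to complex V at the bottom, and filled points have a limma adjusted p under 0.05. Only ATP5PF (2.04) and ATP5MK (1.67), both of complex V, are filled, and the means run from -1.76 for ATP5F1B to 2.04.

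Complex I held no called gene, and 10 of its 31 subunits had a matched-hour mean above 0, with a median of -0.14. Of all 2922 genes, 1362 had a matched-hour mean above 0, with a median of -0.05. The lowest was NDUFB7, an accessory subunit of the membrane arm, with -0.79 and -1.77 at 14 h and -0.75 and -3.04 at 24 h. All 4 arrays were below 0, and the mean of -1.59 ± 0.40 (SE, n = 2 comparisons) just missed the threshold (limma adjusted p = 0.0509). Its 2 pairs of spots lay on the same side, at -2.24 and -0.94. Against 0 h NDUFB7 was not low: MBC14 gave -0.31 and 1.04, and MBC24 gave 1.0 and 0.66.

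NDUFS4, an accessory subunit of the peripheral arm needed for a stable enzyme, was below 0 on every array in this reading. It scored -0.40 and -0.81 at 14 h, -1.75 and -0.96 at 24 h, -0.26 and -1.62 in MBC14 over MBN0, and -1.54 and -1.84 in MBC24 over MBN0. The matched-hour mean was -0.98 ± 0.40 (SE, n = 2 comparisons; limma adjusted p = 0.18). Of the core subunits, NDUFV1, which binds NADH, had a matched-hour mean of -0.23 and NDUFS1, the large iron-sulphur subunit, one of 0.31. At 14 h their arrays A and B gave -0.78 and 0.03 for NDUFV1, and 1.26 and 0.19 for NDUFS1. NDUFS7, another iron-sulphur core subunit, had 0.15 at matched hours but -1.54 and -0.89 in MBC14 over MBN0, the lowest mean of complex I there.

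At the other end of complex I, NDUFA5 scored -0.26 and 1.91 at 14 h and 0.29 and 2.48 at 24 h. Array B was high at both hours and array A was near 0, and the mean of 1.11 ± 0.39 (SE, n = 2 comparisons) did not pass (limma adjusted p = 0.14). NDUFV3, an accessory subunit next to NDUFV1, had a mean of 0.81 and NDUFA8 one of 0.51. For NDUFA8 the spots disagreed, with one pair at 1.78 and the other at -0.75. The assembly factor NDUFAF1 was below 0 on all 4 matched-hour arrays (-0.94, -0.22, -2.83 and -0.76), with a mean of -1.19 ± 0.43 (SE, n = 2 comparisons; limma adjusted p = 0.146).

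Complex II was measured by 3 genes, and they did not go together. SDHD, a membrane anchor, was above 0 on all 4 matched-hour arrays (0.21, 1.27, 1.55 and 1.16), with a mean of 1.05 and a limma adjusted p of 0.16. Against 0 h the arrays of SDHD disagreed, with -1.08 and 3.25 for MBC14 and -1.98 and 0.30 for MBC24. SDHC, the other anchor, had a matched-hour mean of 0.32, but scored 1.67 and 2.18 in MBC24 over MBN0, the highest of all subunits in that comparison. SDHA, the catalytic flavoprotein, scored 1.14 and -1.63 at 14 h and -0.98 and -0.35 at 24 h. Its mean of -0.46 joins a pair of spots at 0.68 and a pair at -1.59, on opposite sides of 0.

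Among the 8 genes of complex III, 4 had a matched-hour mean above 0 and none was called. UQCRC2, one of the core proteins that hold the complex together, scored -0.45 and -0.40 at 14 h and -2.19 and -1.78 at 24 h. It was below 0 on all 4 arrays, lower at 24 h, with a mean of -1.21 ± 0.46 (SE, n = 2 comparisons; limma adjusted p = 0.16). Against 0 h the same gene was above 0 on all 4 arrays, with 1.09 and 0.88 for MBC14 and 2.31 and 1.06 for MBC24. The partner core protein UQCRC1 had a matched-hour mean of -0.42, and its 2 pairs of spots lay at -1.31 and 0.48.

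CYC1, the cytochrome that hands electrons to cytochrome c, scored -0.16 and 1.88 at 14 h and 0.43 and 1.90 at 24 h. As with NDUFA5, array B was high and array A near 0, and the mean of 1.01 did not pass (limma adjusted p = 0.16). The small subunits UQCRH and UQCRQ changed side between the hours. UQCRH, the hinge protein that binds CYC1, scored 1.06 and 1.47 at 14 h and -0.49 and -0.49 at 24 h. UQCRQ scored 2.76 and 0.43 at 14 h and -0.18 and -0.77 at 24 h. UQCR10 and UQCR11 had matched-hour means of -0.50 and -0.68.

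Complex IV had 6 of 13 genes above 0 and a median of -0.32 at matched hours, with none called. COX6C came nearest: it scored -2.77 and -0.37 at 14 h and -0.08 and -2.88 at 24 h, so 1 array of each pair was far below 0 and the other near it. Because the means of the pairs were alike, the estimate was -1.52 ± 0.38 (SE, n = 2 comparisons), with a limma adjusted p of 0.0527. COX7A2, the widely expressed form of subunit VIIa, was below 0 on all 8 arrays. It scored -0.66 and -0.51 at 14 h, -0.93 and -1.19 at 24 h, -1.09 and -0.77 in MBC14 over MBN0, and -1.66 and -0.43 in MBC24 over MBN0, and its matched-hour mean was -0.82 ± 0.39 (SE, n = 2 comparisons; limma adjusted p = 0.25).

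Complex IV has pairs of isoforms. COX4I1, the common form of subunit IV, scored 0.36 and -0.01 at 14 h and -1.02 and -1.24 at 24 h. COX4I2, the form known from lung and from low oxygen, scored 0.20 and 1.75 at 14 h and 1.59 and 1.21 at 24 h. At 24 h the arrays of COX4I1 were all below 0 and those of COX4I2 all above it, with means of -1.13 and 1.40; under the other reading the means were 0.11 and 0.19. Against the 0 h control both were above 0 in MBC24, with 1.25 and 1.17 for COX4I1 and 0.71 and 2.95 for COX4I2. In the matched-hour test COX4I2 had a mean of 1.18 (limma adjusted p = 0.11) and COX4I1 one of -0.48 (limma adjusted p = 0.57).

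Of subunit VIa, COX6A1, the common form, scored 0.18 and 0.29 at 14 h and -0.75 and -1.64 at 24 h, while COX6A2, the muscle form, scored -0.70 and 0.54 at 14 h and -0.17 and -1.67 at 24 h. The means of the pair at matched hours were close, at -0.48 and -0.50. Of subunit VIIa, the muscle form COX7A1 had a matched-hour mean of 0.09, from 4 pairs of spots between -0.53 and 0.64. COX7A2L, which joins complexes III and IV into supercomplexes, scored -0.55 and -1.14 at 14 h, -1.35 and -0.93 at 24 h, and -1.62 and -2.72 in MBC14 over MBN0, the lowest mean of all subunits in that comparison. Its matched-hour mean was -0.99 ± 0.38 (SE, n = 2 comparisons; limma adjusted p = 0.16). COX5B, COX7C and COX6B1 had matched-hour means of 0.74, 0.64 and 0.35, and COX8A one of 0.09 ± 0.61 (SE, n = 2 comparisons), the widest error among the 74 genes, from a 14 h mean of 1.54 and a 24 h mean of -1.35.

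**Figure D2:**
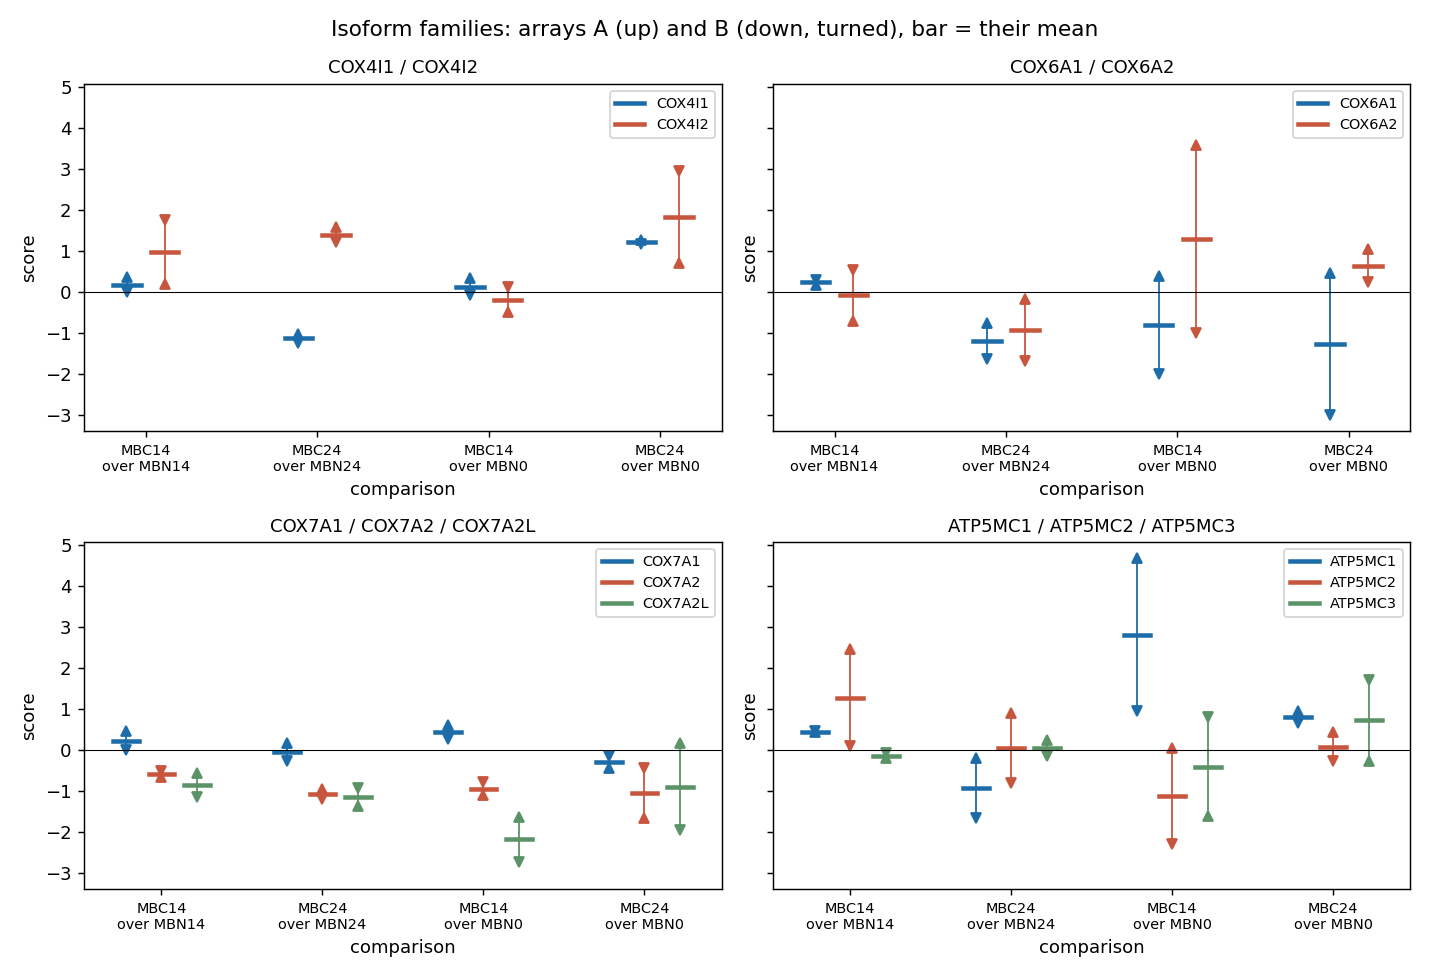
Scores of the isoform families of complexes IV and V in the 4 comparisons; upward triangles are array A, downward triangles array B after turning, and the short bars their mean (n = 2 arrays of the same RNAs). At MBC24 over MBN24 COX4I1 lies at -1.13 and COX4I2 at 1.40, COX7A2 is below 0 in all 4 comparisons, and ATP5MC1 has its highest array at 4.69 in MBC14 over MBN0.

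Complex V held both called genes and also the lowest matched-hour mean of the 74, that of ATP5F1B. This catalytic beta subunit was below 0 on all 8 arrays: -1.83 and -0.05 at 14 h, -0.14 and -5.03 at 24 h, -1.25 and -0.31 in MBC14 over MBN0, and -2.29 and -1.85 in MBC24 over MBN0. One array of each matched pair was far below 0 and the other close to it, and the value of -5.03 was the lowest among the 74 genes on any array. The mean at matched hours was -1.76 ± 0.47 (SE, n = 2 comparisons; limma adjusted p = 0.0619), and without array B it was -0.99 (limma adjusted p = 0.578). ATP5F1A, the alpha subunit, had a mean of -0.42, and ATP5F1C, the gamma subunit of the rotating shaft, one of 0.53 with all 4 matched-hour arrays above 0 (0.12, 0.46, 0.67 and 0.86). ATP5F1D, the delta subunit at the foot of that shaft, scored -1.04 and -1.18 at 14 h but 0.62 and -1.26 at 24 h, with a mean of -0.72.

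In the membrane part, ATP5MF scored 0.95 and 0.40 at 14 h and 0.08 and 3.38 at 24 h, with a mean of 1.20 ± 0.42 (SE, n = 2 comparisons; limma adjusted p = 0.13). ATP5MG scored -0.80, -0.15, -0.18 and -2.67, all below 0, with a mean of -0.95 (limma adjusted p = 0.21). The 3 genes ATP5MC1, ATP5MC2 and ATP5MC3 encode the same mature c subunit of the proton-driven ring, and had matched-hour means of -0.24, 0.67 and -0.04. Their proteins are alike but the transcripts differ, and each was near 0 within 2 SE. The inhibitor ATP5IF1 scored -0.10 and 0.77 at 14 h and 0.02 and -3.12 at 24 h, with a mean of -0.61 ± 0.49 (SE, n = 2 comparisons).

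**Figure D3:**
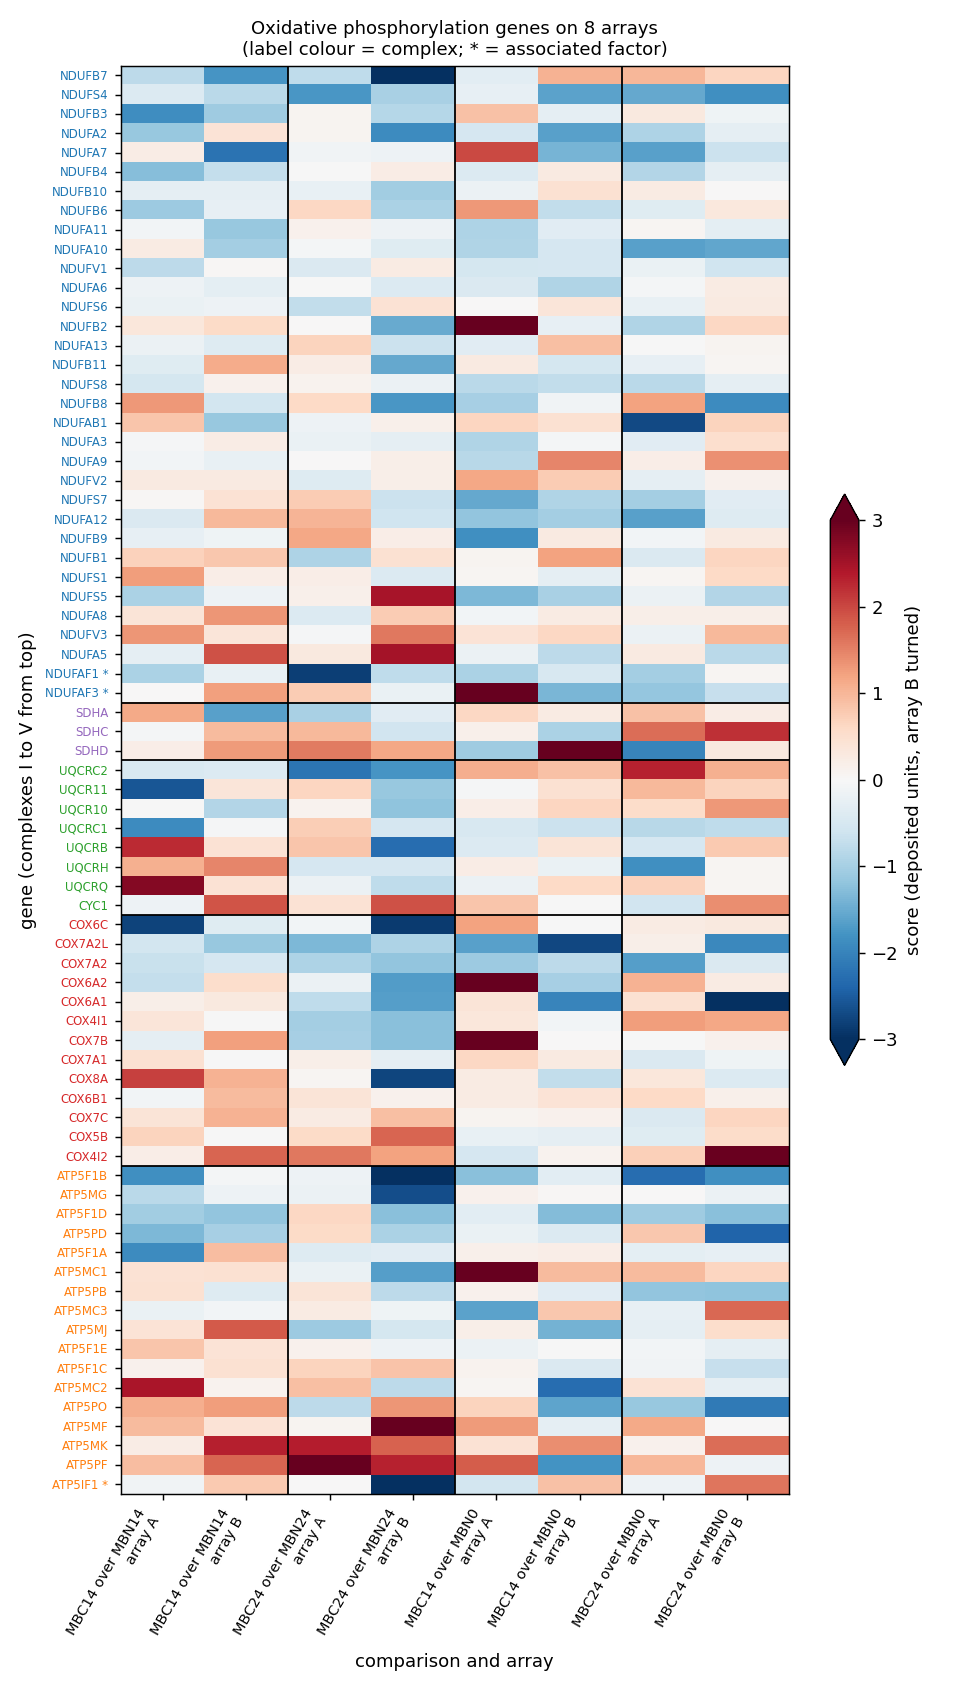
Score of the 74 genes (vertical, complexes I to V from the top, sorted by matched-hour mean within each complex) on the 8 arrays (horizontal, by comparison) after turning array B; red is above 0 and blue below 0, and the colours end at 3 and -3 score units. Few genes keep one colour across all 8 columns: ATP5MK is above 0 throughout and ATP5F1B, COX7A2 and NDUFS4 are below 0 throughout.

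Over all 8 arrays, 4 of the 74 genes (5.41%) kept one sign, against 5.61% of all genes, and over the 4 matched-hour arrays 18 did (24.3%), against 29.1% of all genes. Both shares were close to or under those of the array as a whole. The other reading gave 0 genes over 8 arrays, against 0.445% of all genes, and 4 over the matched-hour arrays (5.41%), against 7.94%. The comparisons against MBN0 share the 0 h RNA, and each conditioned RNA serves in 2 comparisons, so the 8 arrays are not independent.

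Each comparison alone has 1 replicate and no test. A gene was counted by size where its mean over arrays A and B came to 1 score unit or more on one side of 0, and neither array fell short of 0.5 on that side of 0. At 14 h against control at 14 h, 9 of the 74 genes (12.2%) met this, against 19.9% of all genes (9.1% higher and 10.8% lower). The 4 higher ones were ATP5PF, ATP5PO (a peripheral stalk subunit), COX8A and UQCRH, and the 5 lower ones ATP5F1D, ATP5PD (another peripheral stalk subunit), NDUFB3, NDUFB4 and NDUFB7. The median of the 71 subunits was 0.09 and that of all genes -0.04. Under the other reading SDHA (higher) and ATP5F1A (lower) met the rule, 2.7% against 6.37% of all genes (3.56% higher and 2.81% lower).

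At 24 h, 14 of the 74 genes (18.9%) met the size rule, 5 higher and 9 lower, against 17.6% of all genes (7.94% higher and 9.69% lower). The median of the 71 subunits was -0.16, against -0.11 for all genes, and 0.20 under the other reading. The higher ones were ATP5MK, ATP5PF, COX4I2, COX5B and SDHD. Of the 9 lower ones, 5 belonged to complex IV (COX4I1, COX6A1, COX7A2, COX7A2L and COX7B), and the others were NDUFB7, NDUFS4, UQCRC2 and the assembly factor NDUFAF1. With array B taken as already turned, 3 genes met the rule (NDUFB8 and UQCRB higher, ATP5PO lower), 4.05% against 6.02% of all genes (3.7% higher and 2.33% lower).

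Complex IV stood lowest among the complexes at 24 h, with a median of -1.06 over its 13 genes, and 4 of them above 0. At 14 h its median was 0.23 with 9 of 13 above 0. The medians of the other complexes at 24 h were -0.11 for complex I, 0.20 for complex II, -0.48 for complex III and -0.11 for complex V, and -0.11 for all genes. The low value came from array B: complex IV had a median of -0.08 on A but -1.19 on B, and all 71 subunits together one of 0.08 on A but -0.49 on B. Without array B it was thus -0.08, in the conditioned-over-control reading 0.13, and with 11 neighbouring spots as the local level -0.49. The 5 genes counted as lower had both arrays at -0.75 or below, but the size rule that picked them already asks for both arrays on that side. In the conditioned-over-control reading 0 genes of complex IV were counted as lower.

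**Figure D4:**
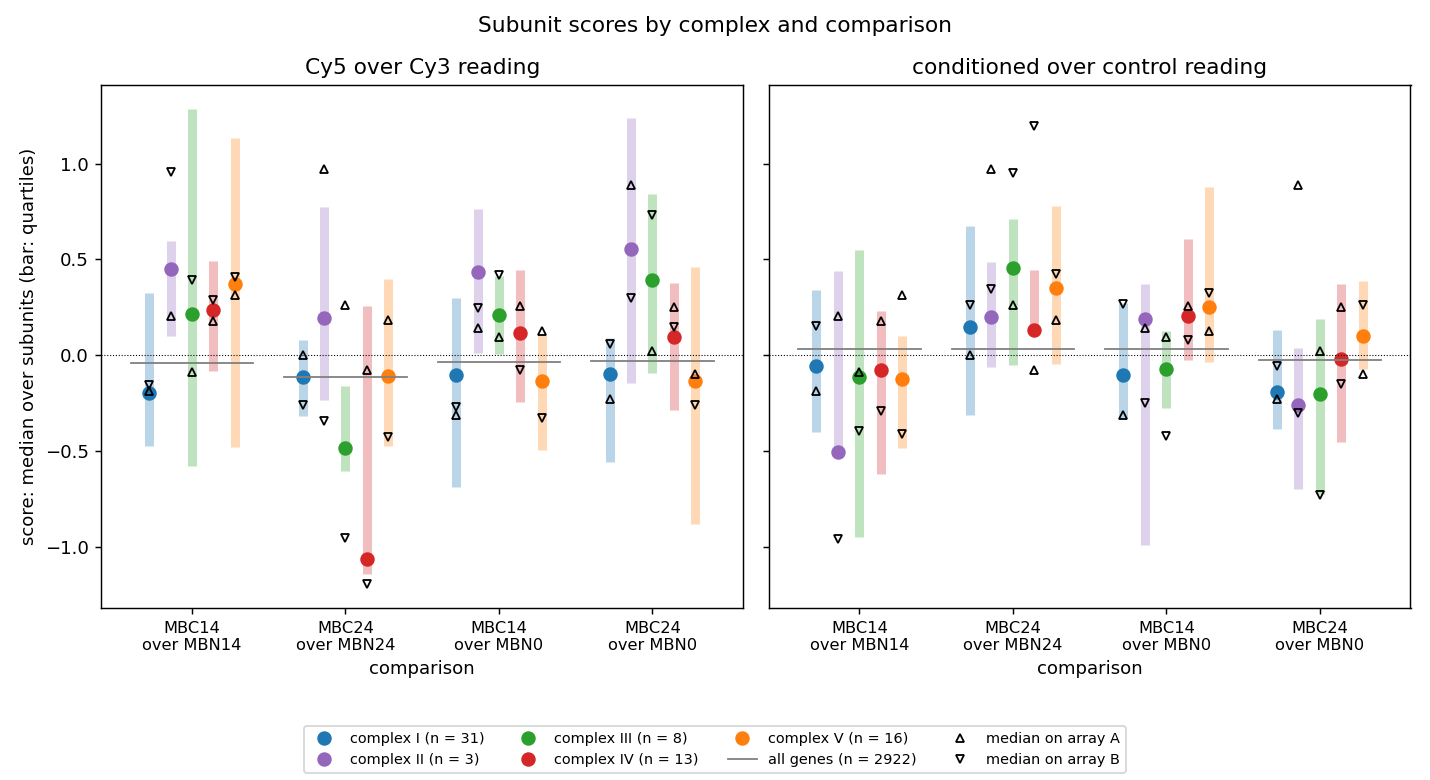
Median score over the subunits of each complex (points; bars are the quartiles over subunits) in the 4 comparisons, in the Cy5-over-Cy3 reading (left) and the conditioned-over-control reading (right); open triangles are the medians on arrays A and B, and grey lines the median of all 2922 genes. Complex IV at MBC24 over MBN24 lies at -1.06 on the left, with its arrays apart at -0.08 and -1.19, and at 0.13 on the right.

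Between the 2 matched hours, 18 of 71 subunits were above 0 at both and 26 below 0 at both, while 19 were above 0 at 14 h and below it at 24 h and 8 the reverse. Among all 2922 genes the counts in this order were 862, 1074, 533 and 453. Across the 71 subunits the scores at 14 h and 24 h correlated at 0.40, and across all 2922 genes at 0.53; subunits share slides and are not independent, so these are descriptions. The other reading gave -0.04 and -0.06. NDUFB7 and ATP5PF were the only subunits past the size rule in one direction at both hours, where 6.67% of all genes were.

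**Figure D5:**
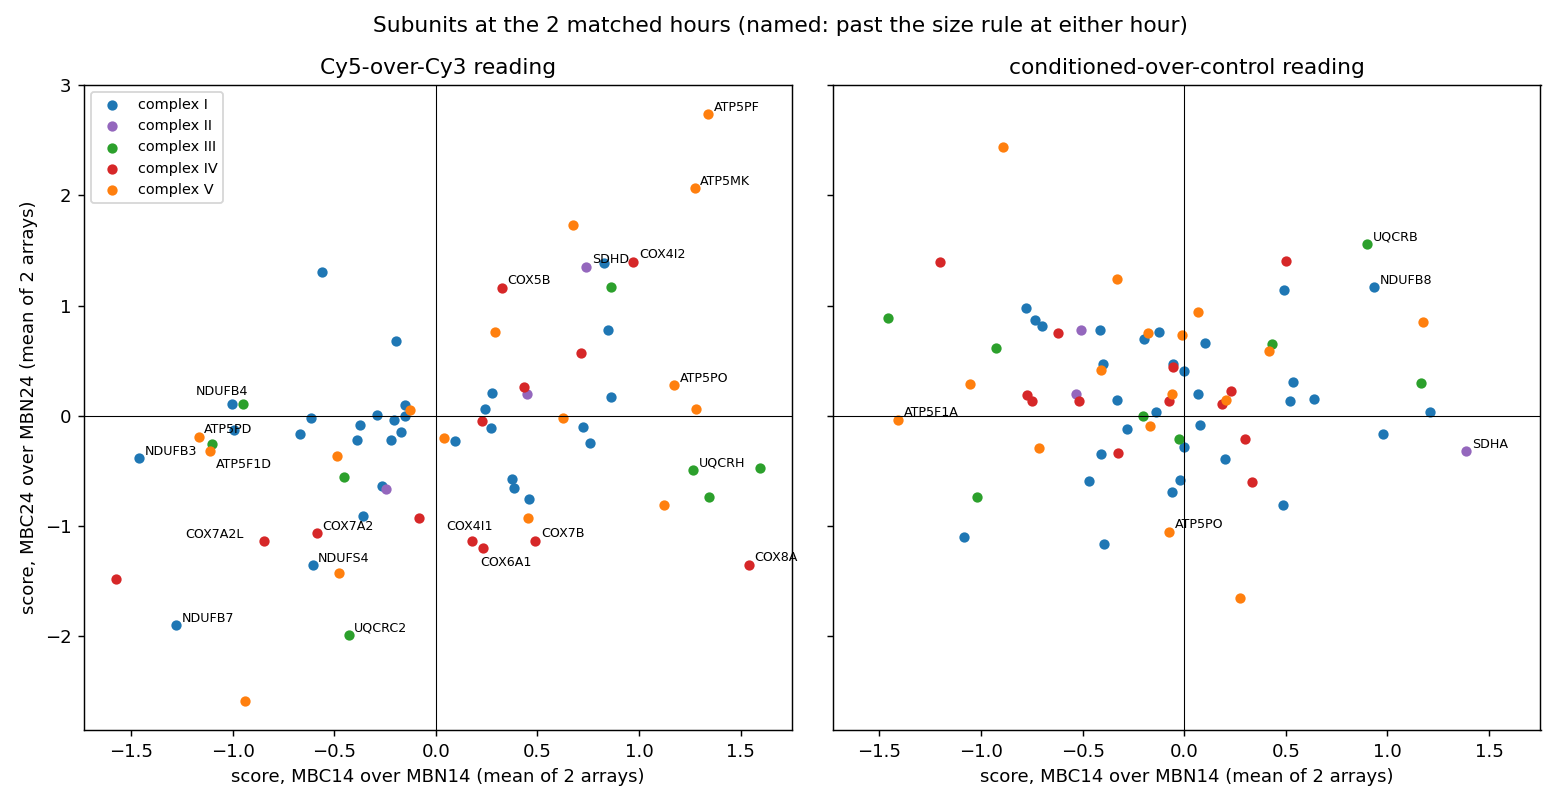
Mean score of arrays A and B at 24 h (vertical) against 14 h (horizontal) for the 71 subunits, coloured by complex, in the Cy5-over-Cy3 reading (left) and the conditioned-over-control reading (right); named points passed the size rule at either hour. On the left ATP5PF (1.34 and 2.74) and ATP5MK (1.27 and 2.06) lie at the upper right and NDUFB7 (-1.28 and -1.90) at the lower left, and on the right no such line of points is seen (r = -0.04).

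Conditioned cells at 14 h were also set against control cells at 0 h, a comparison that mixes the medium with time in culture. The size rule was met by 6 of the 74 genes (8.11%), against 15.7% of all genes (7.29% higher and 8.38% lower). ATP5MC1 was the one higher, at 4.69 on array A and 0.94 on array B, and the lower ones were COX7A2L and 4 subunits of complex I: NDUFA12, NDUFA2, NDUFS5 and NDUFS7. The conditioned-over-control reading gave 9 genes (12.2%, against 10.3% of all genes, 5.61% higher and 4.72% lower), with ATP5PF, ATP5PO, COX6A2, NDUFA7, NDUFAF3 and NDUFB6 higher and ATP5MC3, NDUFA9 and SDHD lower. The subunit median was -0.01, and that of all genes -0.04.

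At 24 h against 0 h, 11 of the 74 genes (14.9%) met the rule, against 19.3% of all genes (8.38% higher and 10.9% lower). COX4I1, COX4I2, SDHC and UQCRC2 were higher. The 7 lower ones held 4 parts of the ATP synthase (ATP5F1B, ATP5F1D, ATP5PB and ATP5PO) and 3 subunits of complex I (NDUFA10, NDUFA7 and NDUFS4). NDUFA10 was alike on both arrays, at -1.62 and -1.57, as was ATP5PB, a peripheral stalk subunit, at -1.19 and -1.21. Under the other reading 3 genes met it (ATP5PD and NDUFB8 higher, NDUFAB1 lower), 4.05% against 6.84% of all genes (3.11% higher and 3.73% lower). Over the 4 comparisons, the subunits of complex I past the size rule were all lower (3, 2, 4 and 3 of 31, in the order 14 h, 24 h, 14 h over 0 h and 24 h over 0 h). These are 9.68%, 6.45%, 12.9% and 9.68%, near the lower shares of all genes (10.8%, 9.69%, 8.38% and 10.9%). The single direction did not hold in the conditioned-over-control reading, where 0, 1, 2 and 1 of them were higher.

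How far a gene's spots agreed limits these values. Among the 74 genes, 58 had 2 spots and 16 had more. Of those 16, 9 had pairs of spots on both sides of 0 at matched hours, and the range between the pairs of a gene ran from 0.15 to 2.53 with a median of 1.04. NDUFA8, SDHA and UQCRC1 had the widest ranges, and NDUFB9, NDUFA11 and NDUFA13 the narrowest. In human-named spots read with mouse RNA, a spot may also bind a related transcript, which matters most for families such as COX6A, COX7A and ATP5MC.

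Other lists of mitochondrial genes gave few calls in the same limma test. None of the 4 electron carriers and their reductases, 14 assembly factors (NDUFAF1 and NDUFAF3, already counted above, among them), 14 enzymes of pyruvate oxidation and the TCA cycle, 18 of mitochondrial protein import, 4 regulators, or 8 nucleotide and phosphate carriers, porins and uncoupling proteins was called, against 5.2% of all genes. All 8 of the last list had a matched-hour mean below 0, with a median of -0.73 against -0.05 for all genes, led by SLC25A4, the muscle ADP/ATP carrier, at -1.03 (limma adjusted p = 0.159). Under the other reading that median was -0.017. ESRRA, whose motif was counted above, had a mean of -1.14 (limma adjusted p = 0.129), and CYCS, cytochrome c itself, one of -1.10 (limma adjusted p = 0.156). Of 35 mitochondrial ribosomal proteins, MRPL4 rose (2.14, limma adjusted p = 0.026) and MRPL40 fell (-2.22, limma adjusted p = 0.0245). Of 5 genes on the antioxidant list only ROMO1 was called, and it rose (3.76, limma adjusted p = 0.00534). ROMO1 is a small inner membrane protein tied to reactive oxygen and not an antioxidant enzyme. Against 0 h the signs of these 3 genes were opposite. MBC14 and MBC24 gave -1.66 and -0.63 for MRPL4, 0.61 and 0.62 for MRPL40, and -1.59 and -0.73 for ROMO1. For comparison, 1 of 65 cytosolic ribosomal proteins was higher and 2 lower, and 2 of 37 sarcomere genes were higher.

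Ratios cannot show whether a marker is present, so the cell type could not be checked by level. Of 7 myoblast markers measured, 5 had a matched-hour mean above 0, with a median of 0.59 against -0.05 for all genes. ITGA7 rose (2.22, limma adjusted p = 0.0232). Of the other lists, 2 of 2 epithelial, 2 of 4 fibroblast and 3 of 5 blood markers were above 0, and HBA2 rose (3.97, limma adjusted p = 0.00249). Against 0 h HBA2 was below 0, at -0.31 for MBC14 and -1.50 for MBC24. Under the other reading it was 2.79 at 14 h and -1.52 at 24 h. HBB, also a blood marker, had a matched-hour mean of -0.88 (limma adjusted p = 0.253), and the fibroblast marker S100A4 one of -1.50 (limma adjusted p = 0.0577). Their part in the values above was not tested.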

How the data were processed

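RNA of C2C12 cells was measured on 8 two-colour spotted arrays. The authors deposited a single signed score for each spot. How the scores were made, their scale and their direction are not given in the sources used here. They run from -23.57 to 24.79, more than log2 ratios of 16-bit channels allow. The test, planned for log ratios, was applied to the scores unchanged. Scanner intensities were not used here, so signal over background is unknown and no dim spot was left out. The number of arrays limits the precision.

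Of 9984 spots, 6610 list 1 gene in the annotation of 2016, 106 list several and 3268 are unnamed here. Arrays were centred on their median, spots averaged per gene, array B turned, and arrays A and B, which hold the same RNAs, averaged as 1 replicate. Tests used limma 3.58.1 in R 4.3.3 (lmFit, eBayes), after a check on simulated data. Alternatives were the other reading of the dyes, 3 other centrings, a common scale, the median of spots, a minimum of 2 spots, each array letter left out, the letter as a block, all 4 comparisons in the fit, a trended robust prior and other size limits. The block fit took its within-comparison correlation from an analysis of variance, since limma's own estimate could not be had from 4 arrays.

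Genes were named by complex: those called, those past the size rule at both hours, the 3 highest and 3 lowest, the extremes against 0 h, and a list fixed by function. Genes past the size rule in a single comparison are named in full. Members and lists were chosen with earlier results of these data known.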

Additional observations from a re-analysis of the deposited data

Results flagged for a closer look

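At matched hours in 8 of the 74 genes and 1 complex, and against the 0 h control in 2 genes, both arrays of one hour lay on one side of 0 and both arrays of the other hour on the opposite side. The differences between the hours were not tested. How many of all genes had this pattern was not counted, so these numbers do not set the group apart from the array. At matched hours the score at 24 h minus that at 14 h was -1.39 for ATP5MC1, -1.43 for COX6A1, -1.93 for ATP5MJ, -1.76 for UQCRH and -2.07 for UQCRQ, and the median of complex IV differed by -1.30. It was 0.25 for NDUFA9, 0.88 for NDUFB9 and 1.87 for NDUFS5, which lay below 0 at 14 h and above it at 24 h. ATP5MC1 scored 0.44 and 0.47 at 14 h and -0.20 and -1.66 at 24 h. For complex IV the medians were 0.18 and 0.29 at 14 h and -0.08 and -1.19 at 24 h, so array A alone shows a small change. Against the shared 0 h control, MBC24 minus MBC14 was -0.44 for ATP5F1A, with 0.15 and 0.19 followed by -0.29 and -0.25, and -0.73 for COX7A1, with 0.62 and 0.27 followed by -0.44 and -0.14.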

How the results depend on the processing

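The count of 2 called genes became 4 with no centring, 4 with the level of 51 neighbouring spots and 4 with the median of spots. It became 1 with the trended robust prior, and 0 with 11 neighbouring spots, with all 4 comparisons in the fit and in the conditioned-over-control reading. It was 0 without array A and 0 without array B. Over all genes the 152 calls became 160 with no centring, 157 with 51 neighbouring spots and 189 with the median of spots. They became 2 with 11 neighbouring spots, 98 with the trended robust prior, 9 with all comparisons and 0 in the conditioned-over-control reading. Without array A they were 0 and without array B 128. With the array letter as a replicate block, 0 of the 74 genes and 86 of all genes were called, and the limma adjusted p was 0.0510 for ATP5PF and 0.0742 for ATP5MK. Deviations of arrays with the same letter, taken from the difference between array A and turned array B, correlated between comparisons at -0.10 to 0.17. Arrays A and B hold the same RNAs with exchanged dyes, so this cannot tell whether the letters pair the samples.

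The size rule gave 9 genes at 14 h, 14 at 24 h, 6 at 14 h over 0 h and 11 at 24 h over 0 h. In the conditioned-over-control reading these were 2, 3, 9 and 3. With 11 neighbouring spots the count at 24 h was 8 and at 24 h over 0 h 6. A mean of at least log2 of 3 gave 0, 5, 2 and 7, and a mean of at least 0.5 with both arrays above 0 gave 34, 29, 25 and 29. On 1 array letter the counts were 21 to 24 at 14 h, 12 to 33 at 24 h, 18 to 21 at 14 h over 0 h and 20 to 23 at 24 h over 0 h. There only that array has to pass, so the rule is a looser one. For the other neighbours, the other size limits and 1 letter, the share of all genes was not counted. Those counts describe the group alone.

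The subunit median at 14 h (0.09) was -0.073 in the conditioned-over-control reading and -0.056 to 0.12 on 1 array letter. At 24 h (-0.16) it was 0.20 in the conditioned-over-control reading, -0.022 with 51 and 0.037 with 11 neighbouring spots, and -0.49 to 0.079 on 1 letter. At 14 h over 0 h it was -0.19 to 0.055 on 1 letter. At 24 h over 0 h (0.026) it was -0.091 with 51 neighbouring spots, -0.091 as a mean, and -0.10 to 0.058 on 1 letter. The cause of these moves was not tested.

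Of 1008 values of genes and complexes under the alternatives, 118 changed sign. They were 57 of 504 matched-hour means of the named genes, 14 of 252 size-rule means and 47 of 252 medians. These totals include alternatives that could not change a sign. A minimum of 2 spots removed no gene, since none had fewer, and the block and trended fits kept every matched-hour mean. The conditioned-over-control reading turned 27 of the 42 matched-hour means: ATP5F1B (0.78), ATP5F1C (-0.13), ATP5F1D (0.50), ATP5MC1 (0.36), ATP5MC3 (0.068), ATP5MF (-0.69), ATP5MG (0.46), ATP5MK (-0.38), COX4I1 (0.15), COX4I2 (-0.29), COX5B (-0.13), COX6A1 (0.20), COX6A2 (0.066), COX6B1 (-0.19), COX6C (0.098), COX7A2 (0.027), COX7A2L (0.045), COX7C (-0.33), CYC1 (-0.88), NDUFA5 (-1.09), NDUFA8 (-0.53), NDUFB7 (0.82), NDUFV3 (-0.16), SDHA (0.53), SDHD (-0.17), UQCR10 (0.54) and UQCRH (-0.10). It turned all 14 of the size-rule means that changed sign: at 14 h ATP5F1D (0.068), ATP5PF (-0.41), NDUFB7 (0.49) and UQCRH (-0.20); at 24 h COX4I1 (0.11), COX5B (-0.60), COX6A1 (0.45), COX7A2 (0.13) and NDUFB7 (1.14); at 14 h over 0 h COX7A2L (0.55); and at 24 h over 0 h ATP5F1D (0.10), COX4I2 (-1.12), NDUFS4 (0.15) and SDHC (-0.26). It also turned 18 of 24 medians, while leaving out array A turned 3 and leaving out array B 9.

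Fitting all 4 comparisons turned the matched-hour mean of ATP5MC1 (0.79), ATP5MC3 (0.065), COX4I1 (0.095), COX6A2 (0.23), COX8A (-0.025), NDUFS7 (-0.40), SDHA (0.020), UQCR10 (0.084), UQCRC2 (0.064) and UQCRH (-0.028). The level of 51 neighbouring spots turned ATP5MC3 (0.0029), COX7A1 (-0.031), SDHA (0.13) and SDHC (-0.042), and that of 11 turned NDUFS7 (-0.045), SDHA (0.086) and UQCR10 (0.080). On 1 array letter the mean lay on either side of 0 for ATP5F1A (-1.14 to 0.30), ATP5MC1 (-0.60 to 0.12), ATP5MC2 (-0.34 to 1.68), ATP5MC3 (-0.10 to 0.032), COX7A1 (-0.14 to 0.32), COX8A (-0.86 to 1.05), NDUFA8 (-0.015 to 1.04), NDUFS1 (-0.11 to 0.73), NDUFS7 (-0.098 to 0.40), NDUFV1 (-0.61 to 0.15), SDHA (-0.99 to 0.079), UQCR10 (-1.05 to 0.039) and UQCRQ (-0.17 to 1.29). The other alternatives turned none of the 42 matched-hour means. For the minimum of 2 spots, the block and the trended prior this was fixed in advance.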
